A study of Mus musculus with 12 samples.

Results

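The EGF-like ligands and ERBB receptors were followed in mouse granulosa cells, the cells that surround the oocyte in the ovarian follicle. All probe sets annotated to 1 of 10 listed genes were taken, whatever their values: the ligands Areg, Ereg, Btc, Hbegf, Tgfa and Nrg1, the receptors Egfr, Erbb2 and Erbb3, and Errfi1, an inhibitor of these receptors. Of the 10 genes, 9 had probe sets, 21 in all, among 18194 genes with a probe set of their own and 45101 probe sets. No probe set is annotated to Areg in the table used here, so Areg, the gene of amphiregulin, was not analysed here.

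RNA was hybridised to 12 Affymetrix mouse arrays in 4 groups of 3. Ex6DEL mice lack exon 6 of Snf2l, now named Smarca1, the gene of an ISWI chromatin-remodelling ATPase. The line arose from a cross of a ubiquitously expressed Gata-1 Cre transgene on a CD-1 background with mice whose Snf2l exon 6 is flanked by loxP sites on a 129Sv background. The deletion was passed through the germline, and the line was then kept on 129SV without Cre. Wild-type (WT) littermates served as controls. All females were 24 to 26 days old and were given pregnant mare serum gonadotropin (PMSG, 5 IU), a hormone that makes follicles grow. The Ex6DEL 4 h and WT 4 h groups were then given human chorionic gonadotropin (hCG, 5 IU), an agonist of the luteinizing hormone (LH) receptor, 48 h after PMSG, and were collected 4 h later. The Ex6DEL 0 h and WT 0 h groups were collected 48 h after PMSG, without hCG. Each array held RNA of cells from 5 mice. The labels do not say whether the 3 arrays of a group were separate pools, so p-values may measure technical spread alone.

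Values are log2 intensities, between a floor of 2.21 and 18.2, with array medians of 2.75 to 2.91. Per array, 36.4% to 40.5% of all probe sets were at most 0.1 above that floor. Of the 8 listed granulosa markers 7 were measured, and their mean was 10.28 to 10.59 in Ex6DEL cells at 4 h, against 11.97 to 12.47 at 0 h, and 10.57 to 11.30 in WT cells at 4 h, against 11.49 to 12.16 at 0 h. It was thus lower at 4 h on every array in both genotypes, and the part of this in the changes of the members was not tested. Fshr, the receptor gene of follicle-stimulating hormone, lay at 7.69 to 8.76 in Ex6DEL cells at 4 h, against 12.05 to 13.57 at 0 h, and at 8.63 to 10.60 in WT cells at 4 h, against 11.08 to 12.58 at 0 h. Not every marker was lower at 4 h. The inhibin subunit gene Inha lay at 16.66 to 17.17 in Ex6DEL cells at 4 h, against 17.10 to 18.18 at 0 h. In WT cells it was higher at 4 h, at 16.88 to 17.36, against 16.30 to 16.84 at 0 h. Inhba lay at 16.57 to 17.25 in Ex6DEL cells at 4 h, against 16.94 to 17.92 at 0 h, and at 16.645 to 17.37 in WT cells at 4 h, against 15.997 to 16.67 at 0 h. Nr5a2 overlapped between the times in both genotypes. Amh, made by granulosa cells of small follicles, was at the floor on all 12 arrays. The 1 probe set of Smarca1 lay between 10.61 and 12.19 in Ex6DEL cells and between 10.31 and 12.32 in WT cells; whether it reads exon 6 is not stated, so it does not check the genotype.

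Single arrays at 0 h stood apart. On Ex6DEL 0 h replicate 3, all 7 follicle transcripts listed as raised by EGF receptor signalling were at their highest of the 6 arrays at 0 h. WT 0 h replicate 1 was set apart for its value of Ereg alone. On Ex6DEL 0 h replicate 1, all 7 measured markers of theca and stroma, the cell layers around the follicle, were at their highest at 0 h, with a mean of 12.17 against 8.05 to 9.25 on the other arrays at 0 h. The mean of the 8 listed oocyte markers was also highest on that array, at 9.45, as was that of the granulosa markers, at 12.47. For some members, changes are also given without these arrays. Because 2 of them were set apart by transcripts of the hCG response, Ereg included, values of such transcripts without them are descriptions, with no test.

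LH does not act directly on all follicle cells. In background knowledge of the rodent ovary, LH receptors on mural granulosa cells raise cyclic AMP, and the cells then make amphiregulin, epiregulin and betacellulin as membrane-bound precursors. Proteases release these ligands, which bind the EGF receptor on neighbouring granulosa and cumulus cells and drive cumulus expansion and oocyte maturation. ERBB3 needs a partner receptor to signal, ERBB2 binds no ligand of its own, and ERRFI1 (also called MIG6) blocks the kinase of activated receptors.

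In Ex6DEL cells 4 h after hCG, Btc, Ereg and Errfi1 had changes of 3.98 to 8.85 log2 units, and none passed the test at the level of genes. In WT cells Btc and Errfi1 rose, calls that the replicate number as a block ended. Ereg in WT cells was higher on all arrays at 4 h than on any at 0 h without passing the test. A single probe set of Egfr fell in Ex6DEL cells, a call that the replicate number as a block ended, and no ligand, receptor or inhibitor differed between the genotypes past the threshold. Hbegf, Tgfa, Nrg1, Erbb2 and Erbb3 showed no change past the threshold in any comparison.

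In Ex6DEL cells, 0 of the 9 measured members passed the test, where 0.566% of all genes passed upward and 1.6% downward. At an unadjusted p under 0.05 there were 3 of the 9, beside 18.9% of all genes in Ex6DEL cells and 14.4% in WT cells at that level. In WT cells, 2 of 9 passed, both up, with 3 at an unadjusted p under 0.05, where 0.61% of all genes passed upward and 0.319% downward. The test was limma's moderated test on all 12 arrays, with Benjamini-Hochberg adjustment over 18194 genes and a threshold of 0.05. The median change of the 9 members was -0.07 in Ex6DEL cells and -0.15 in WT cells, beside medians over all genes of -0.01 in Ex6DEL cells and 0 in WT cells. In bulk samples, fewer cells of a type and less RNA per cell cannot be told apart.

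Btc encodes betacellulin, a ligand of EGFR and ERBB4. In Ex6DEL cells its probe set 1435541_at read 14.94, 13.49 and 14.34 at 4 h, against 2.59, 2.63 and 10.99 at 0 h. In WT cells it read 15.10, 14.33 and 13.58 at 4 h, against 3.84, 2.59 and 2.77 at 0 h. Every array at 4 h was above every array at 0 h in both genotypes, and Ex6DEL 0 h replicate 3 was the only array at 0 h above 3.84. The same value, 2.59, stood on 2 of the 12 arrays within 0.001, both at 0 h and close to the floor. This limits what the size of the Btc change shows. The change was 8.85 (SE 1.96, adjusted p = 0.0576 by limma) in Ex6DEL cells and 11.27 (SE 1.96, adjusted p = 0.0429 by limma) in WT cells. Of the 9 members, 2 in Ex6DEL cells (Btc and Errfi1) and 3 in WT cells (with Ereg) were higher on every array at 4 h than on any at 0 h, where 5.13% and 7.52% of all genes were.

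The second probe set of Btc, 1421161_at, was also higher on every array at 4 h than on any at 0 h in both genotypes. In Ex6DEL cells it read 9.84, 9.80 and 10.47 at 4 h, against 2.95, 2.58 and 6.70 at 0 h. The WT arrays gave 10.41, 9.79 and 9.62 at 4 h, against 3.91, 2.58 and 2.58 at 0 h. It rose in both genotypes when each of the 45101 probe sets was tested by itself, by 5.96 (SE 0.98, adjusted p = 0.0496 by limma) in Ex6DEL cells and by 6.91 (SE 0.98, adjusted p = 0.0324 by limma) in WT cells. Of the 21 member probe sets, 1 passed upward and 1 downward in Ex6DEL cells, where 0.244% and 0.288% of all probe sets did. In WT cells 2 passed upward and 0 downward, where 0.322% and 0.126% did. The 1435541_at probe set missed the threshold in this larger family, with an adjusted p of 0.0589 in WT cells. With 1 array left out, the call of 1421161_at held in 1 of 12 fits in Ex6DEL cells and 4 of 12 in WT cells. With the replicate number as a block its adjusted p by limma was 0.0861 in Ex6DEL cells, and its call in WT cells was ended too. The value 2.58 of 1421161_at stood on 3 of the 12 arrays within 0.001, all at 0 h, with the same limit on the size of its change.

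Leaving out Ex6DEL 0 h replicate 3 gave a change of Btc 1435541_at of 11.64 in Ex6DEL cells, and leaving out WT 0 h replicate 1 gave 11.65 in WT cells. In WT cells the call of Btc held in 3 of the 12 fits that leave out 1 array. With the replicate number as a block its adjusted p by limma in WT cells was 0.0783.

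Ereg encodes epiregulin, a ligand of EGFR and ERBB4. The Ex6DEL arrays gave 14.48, 14.11 and 14.69 at 4 h, against 5.43, 3.91 and 14.67 at 0 h. WT values of it were 15.10, 15.24 and 13.15 at 4 h, against 10.75, 3.88 and 4.06 at 0 h. Ex6DEL 0 h replicate 3 thus lay within the range of the Ex6DEL arrays at 4 h, while the WT arrays at 4 h and 0 h did not overlap. The change was 6.42 (SE 2.80, adjusted p = 0.261 by limma) in Ex6DEL cells and 8.27 (SE 2.80, adjusted p = 0.226 by limma) in WT cells.

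The SD of Ereg in Ex6DEL cells was 0.29 at 4 h, against 5.82 at 0 h, and in WT cells 1.17 at 4 h, against 3.91 at 0 h (n = 3 each). Without Ex6DEL 0 h replicate 3 the change of Ereg in Ex6DEL cells was 9.76, and without WT 0 h replicate 1 that in WT cells was 10.53. In WT cells Ereg passed in 0 of the 12 fits that leave out 1 array.

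**Figure D1:**
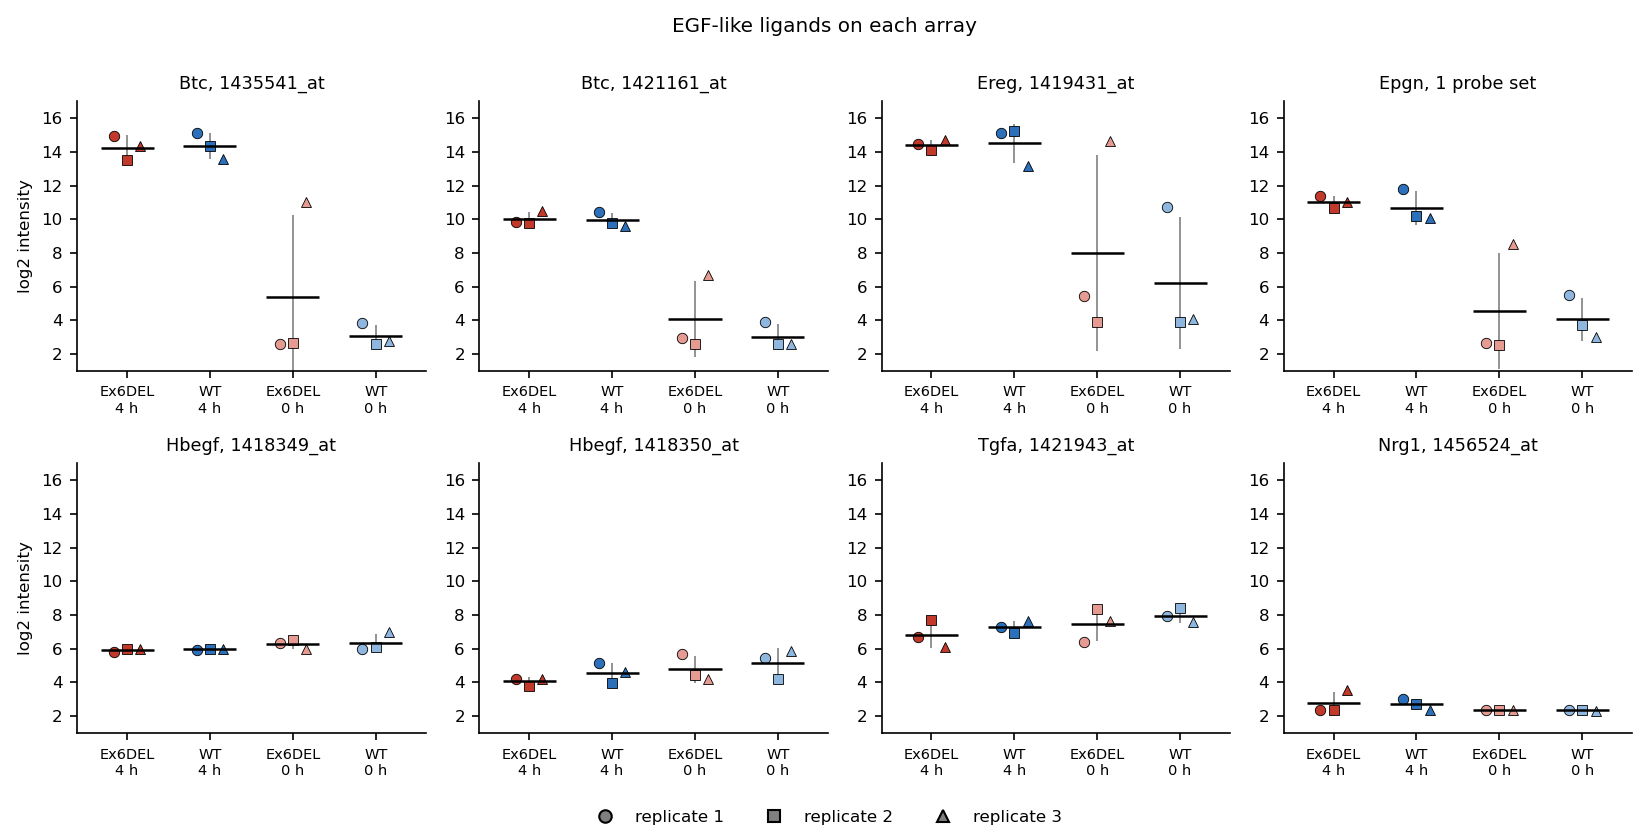
Log2 intensity of the ligands on each array (points, shaped by replicate) in the Ex6DEL 4 h, WT 4 h, Ex6DEL 0 h and WT 0 h groups, with the group mean (bar) and SD (grey line), n = 3. Btc, Ereg and Epgn were high on all 6 arrays at 4 h, and Ex6DEL 0 h replicate 3 (triangle) was the highest array at 0 h for each of them; Hbegf, Tgfa and Nrg1 spanned at most 2.29 units over the 12 arrays.

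Hbegf, the heparin-binding ligand, had 2 probe sets. The brighter, 1418349_at, read 5.79 to 5.98 in Ex6DEL cells at 4 h and 5.98 to 6.55 at 0 h, and 5.95 to 5.98 in WT cells at 4 h and 5.98 to 6.98 at 0 h. The same value, 5.98, stood on 6 of the 12 arrays within 0.001, so differences there carry no order. Its change was -0.38 (95% interval -0.94 to 0.18) in Ex6DEL cells and -0.39 (95% interval -0.95 to 0.17) in WT cells. The other probe set, 1418350_at, lay between 3.77 and 5.89 and changed by -0.71 in Ex6DEL cells and -0.61 in WT cells.

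Tgfa, the gene of transforming growth factor alpha, was read by 1 probe set above the floor, 1421943_at. Ex6DEL values of it were 6.73, 7.69 and 6.12 at 4 h, against 6.41, 8.38 and 7.65 at 0 h. Readings in WT cells were 7.29, 6.95 and 7.64 at 4 h, against 7.93, 8.42 and 7.56 at 0 h. The groups overlapped in both genotypes, and the change was -0.63 (95% interval -1.87 to 0.60) in Ex6DEL cells and -0.68 (95% interval -1.91 to 0.56) in WT cells. The 2 other Tgfa probe sets stayed between 2.21 and 2.34.

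Nrg1, a neuregulin that binds ERBB3 and ERBB4, lay between 2.31 and 3.56, and 8 of the 12 arrays shared the value 2.37. At this signal over background a change of Nrg1 was not measurable.

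Errfi1 was the other member that passed in WT cells. In Ex6DEL cells its probe set 1416129_at read 14.83, 13.56 and 13.73 at 4 h, against 8.59, 9.37 and 12.21 at 0 h. In WT cells it read 15.13, 14.02 and 13.52 at 4 h, against 9.32, 8.84 and 8.97 at 0 h. The arrays at 4 h and 0 h did not overlap in either genotype, and Ex6DEL 0 h replicate 3 was again the highest array at 0 h. The change was 3.98 (SE 0.86, adjusted p = 0.0547 by limma) in Ex6DEL cells and 5.18 (SE 0.86, adjusted p = 0.0397 by limma), or 36.2-fold, in WT cells.

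Without Ex6DEL 0 h replicate 3 the change of Errfi1 in Ex6DEL cells was 5.06. In WT cells its call held in 2 of the 12 fits that leave out 1 array. With the replicate number as a block its adjusted p by limma in WT cells was 0.0783, and the call of the second probe set was also ended. The second probe set, 1419816_s_at, had a change of 2.57 (SE 0.49, adjusted p = 0.0638 by limma) in Ex6DEL cells and rose by 3.48 (SE 0.49, adjusted p = 0.0323 by limma) in WT cells, a call that held in 6 of the 12 fits with 1 array left out. It read 4.75, 5.84 and 5.99 in Ex6DEL cells at 0 h, so that replicate 3 stood out less there than on the first probe set.

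The windows from 250 bases before to 50 bases after the annotated start are shown for Btc and Errfi1, the members that rose, and for Egfr, 1 probe set of which fell. They come from RefSeq with the build GRCm38.p6 and are printed 5′ to 3′ on the strand of the gene. Capitals mark the cAMP response element TGACGTCA and its core TGACG on either strand; the core lies within the full element. The Btc window is chr5:91402945-91403244 on the minus strand, the Errfi1 windows are chr4:150853546-150853845 and chr4:150854820-150855119 on the plus strand, and the Egfr window is chr11:16751953-16752252 on the plus strand.
Btc: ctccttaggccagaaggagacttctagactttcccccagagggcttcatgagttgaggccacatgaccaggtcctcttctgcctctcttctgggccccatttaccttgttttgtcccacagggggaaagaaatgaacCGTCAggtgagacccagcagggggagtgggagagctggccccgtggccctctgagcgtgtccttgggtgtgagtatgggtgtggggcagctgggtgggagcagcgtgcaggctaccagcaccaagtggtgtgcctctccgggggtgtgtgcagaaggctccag
Errfi1 first start: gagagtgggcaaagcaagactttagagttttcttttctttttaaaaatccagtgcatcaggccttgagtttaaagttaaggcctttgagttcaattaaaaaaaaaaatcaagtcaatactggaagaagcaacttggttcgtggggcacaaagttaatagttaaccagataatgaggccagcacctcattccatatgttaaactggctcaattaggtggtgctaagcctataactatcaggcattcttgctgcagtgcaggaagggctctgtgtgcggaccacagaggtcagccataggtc
Errfi1 second start: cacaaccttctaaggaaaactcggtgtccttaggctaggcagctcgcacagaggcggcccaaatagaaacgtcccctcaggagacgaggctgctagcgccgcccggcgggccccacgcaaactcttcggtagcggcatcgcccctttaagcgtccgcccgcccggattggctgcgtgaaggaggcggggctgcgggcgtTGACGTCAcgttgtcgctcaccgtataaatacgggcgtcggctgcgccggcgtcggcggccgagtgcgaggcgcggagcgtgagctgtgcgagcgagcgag
Egfr: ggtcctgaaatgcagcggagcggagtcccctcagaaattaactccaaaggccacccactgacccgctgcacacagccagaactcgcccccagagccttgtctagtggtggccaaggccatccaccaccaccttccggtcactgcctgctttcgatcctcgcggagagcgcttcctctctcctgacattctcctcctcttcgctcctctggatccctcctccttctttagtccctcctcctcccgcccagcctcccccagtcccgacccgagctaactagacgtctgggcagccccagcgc

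The member count used 7 windows for 6 of the 10 listed genes: Areg, Btc, Egfr, Erbb2, Errfi1 with 2 starts, and Tgfa. Ereg, Hbegf, Nrg1 and Erbb3 had no window in this count. A filter by chromosome was applied to the member windows and not to the windows behind the shares. The full element TGACGTCA stood in 2 of the 7, that of Areg, 61 bases before the start, and the second of Errfi1, 51 bases before the start, while 1.79% of all 32851 windows of this length held it. The core TGACG stood in 4 of the 7 and in 20.8% of all windows, and in Btc it lay 113 bases before the start, on the other strand as CGTCA. The AP-1 letters TGANTCA stood in 0 of the 7 windows and in 7.81% of all. The TATAAA letters, also searched on both strands, stood in 2 of the 7, again those of Areg and the second Errfi1 start, and in 13.6% of all windows, and the GC box GGGCGG in 4 of the 7 and in 35.7%. Both Areg and Errfi1 had TATAAA within 31 bases of the start. These matches describe the letters of the windows alone.

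Egfr, the receptor for all the ligands named except Nrg1, was read by 7 probe sets that did not move alike. The probe set with the highest mean, 1460420_a_at, which stood for the gene in the test of genes, read 7.84, 8.13 and 7.63 in Ex6DEL cells at 4 h, against 7.86, 7.77 and 8.17 at 0 h. The WT arrays gave 7.82, 7.96 and 7.83 at 4 h, against 8.93, 7.96 and 7.74 at 0 h. Its change was -0.07 (95% interval -0.71 to 0.58) in Ex6DEL cells and -0.34 (95% interval -0.98 to 0.30) in WT cells.

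A dimmer probe set, 1424932_at, was lower at 4 h on every array in both genotypes. Readings in Ex6DEL cells were 3.09, 3.33 and 2.998 at 4 h, against 9.21, 6.03 and 7.07 at 0 h. WT values of it were 4.41, 4.89 and 4.55 at 4 h, against 6.91, 6.20 and 6.26 at 0 h. It fell in Ex6DEL cells, with a change of -4.30 (SE 0.67, adjusted p = 0.0424 by limma over all probe sets), and had a change of -1.84 (SE 0.67, adjusted p = 0.358 by limma) in WT cells. Of the 21 probe sets, 1 in Ex6DEL cells and 2 in WT cells were lower on every array at 4 h, where 9.07% and 7.37% of all probe sets were.

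The second of these in WT cells was Egfr 1435888_at. In Ex6DEL cells it read 5.43, 4.08 and 4.89 at 4 h, against 8.23, 5.29 and 6.89 at 0 h, and the groups overlapped. Readings in WT cells were 4.70, 4.66 and 5.05 at 4 h, against 5.68, 6.63 and 7.19 at 0 h. Its change was -2.01 (SE 0.71, adjusted p = 0.259 by limma) in Ex6DEL cells and -1.70 (SE 0.71, adjusted p = 0.439 by limma) in WT cells. Without Ex6DEL 0 h replicate 1 its change in Ex6DEL cells was -1.29. The 4 other Egfr probe sets lay between 2.21 and 2.63. The positions of these probe sets on the Egfr transcripts are not given in the sources used here, so which transcript each one reads was not analysed here.

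Ex6DEL 0 h replicate 1, the array with the highest theca and stroma markers, also had the highest value of Egfr 1424932_at and 1435888_at, of Erbb2 and of Erbb3. The part of theca, stroma or oocyte RNA in these values was not tested. Without that array Egfr 1424932_at changed by -3.41 (adjusted p = 0.0152 by limma) in Ex6DEL cells. Its call held in 3 of the 12 fits that leave out 1 array, with adjusted p-values from 0.0152 to 0.129 and changes from -5.00 to -3.41. With the replicate number as a block, the adjusted p by limma was 0.0807, and over all genes 33 passed upward and 59 downward in Ex6DEL cells, against 103 and 291 without it. The theca and stroma mean was 7.29 to 8.41 in Ex6DEL cells at 4 h and 8.27 to 12.17 at 0 h, and 8.03 to 8.58 in WT cells at 4 h and 8.05 to 9.25 at 0 h, and none of the 7 markers was near the floor on all arrays of a group.

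Erbb2 read 4.23, 5.28 and 4.92 in Ex6DEL cells at 4 h, against 6.46, 4.92 and 4.92 at 0 h. In WT cells it read 4.87, 4.92 and 4.92 at 4 h, against 4.92, 4.92 and 5.32 at 0 h. The value 4.92 stood on 7 of the 12 arrays, which left Ex6DEL 0 h replicate 1 as the only array above 5.32. The change of Erbb2 was -0.62 (95% interval -1.57 to 0.33) in Ex6DEL cells and -0.15 (95% interval -1.10 to 0.80) in WT cells. Without Ex6DEL 0 h replicate 1 it was -0.11 in Ex6DEL cells.

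Erbb3 was read by 1434606_at between 3.20 and 5.96 and by a second probe set that stayed at the floor on all 12 arrays. It changed by -0.09 (95% interval -1.58 to 1.39) in Ex6DEL cells and by -0.20 (95% interval -1.69 to 1.28) in WT cells. Without Ex6DEL 0 h replicate 1 its change in Ex6DEL cells was 0.70.

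**Figure D2:**
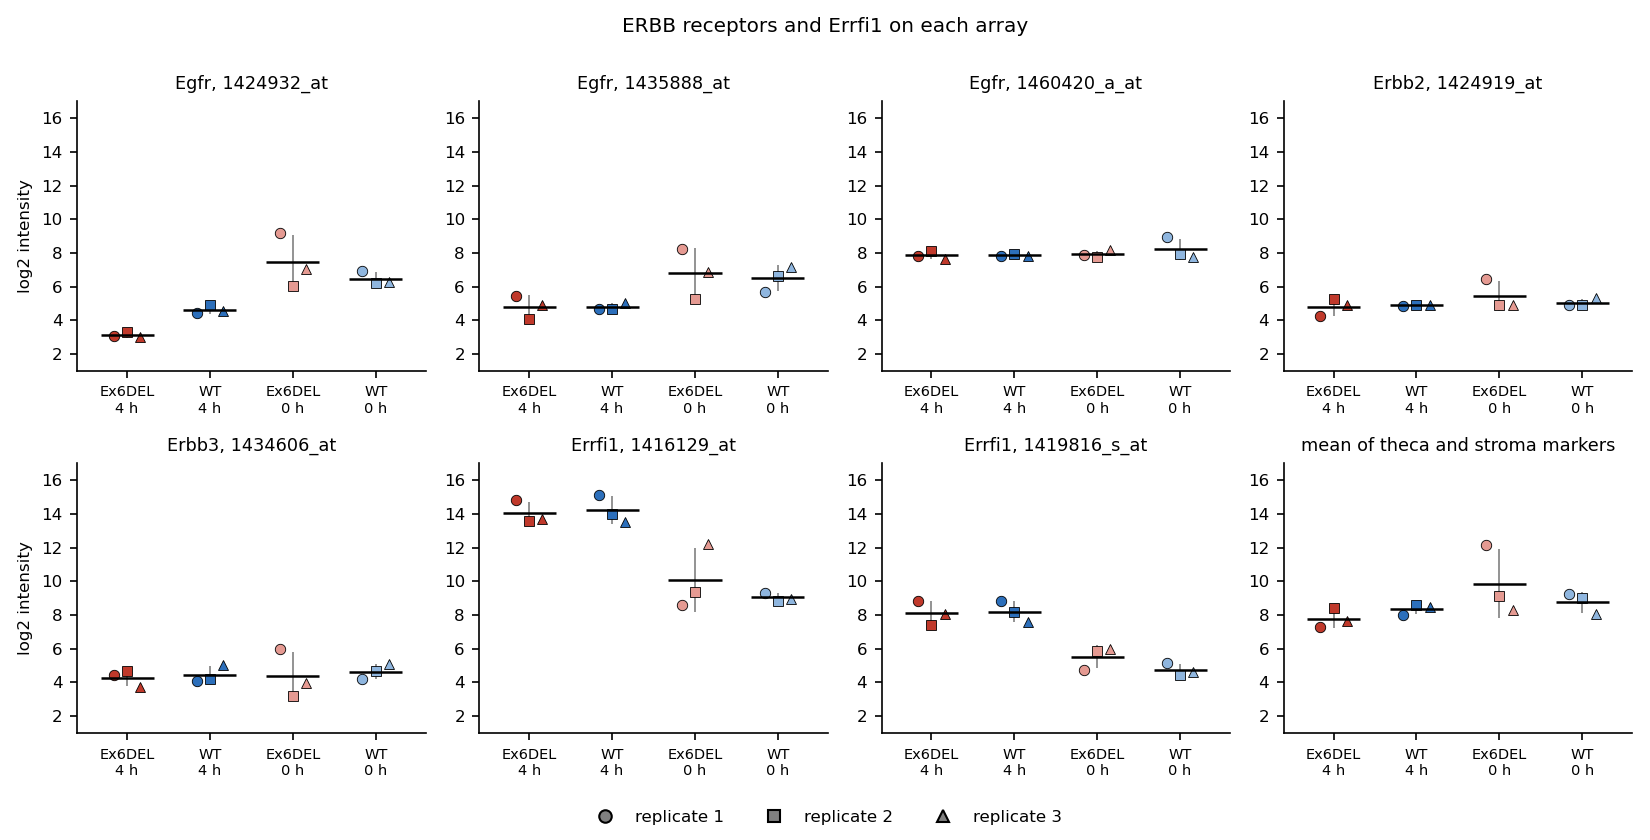
Log2 intensity of the receptors and of Errfi1 on each array in the Ex6DEL 4 h, WT 4 h, Ex6DEL 0 h and WT 0 h groups, with the mean of 7 theca and stroma markers in the last panel; bars are group means, grey lines SDs, n = 3. Errfi1 was high on all arrays at 4 h, Egfr 1424932_at was low on all of them, and Ex6DEL 0 h replicate 1 (circle) was the highest array of the marker mean, of Egfr 1424932_at and 1435888_at, of Erbb2 and of Erbb3.

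Whether the deletion of exon 6 altered the members was asked at each time and as a difference of responses. At 4 h, 0 of 9 members passed, as did 0% of all genes, and at 0 h 0 of 9 passed, where 0.033% of all genes did. No member gene had an unadjusted p under 0.05 in either. At 4 h Btc averaged 14.26 ± 0.73 in Ex6DEL cells and 14.34 ± 0.76 in WT cells (SD, n = 3 each), a difference of -0.08 (95% interval -4.55 to 4.39). Ereg averaged 14.43 ± 0.29 in Ex6DEL cells and 14.50 ± 1.17 in WT cells, a difference of -0.07 (95% interval -6.44 to 6.30). Errfi1 averaged 14.04 ± 0.69 in Ex6DEL cells and 14.22 ± 0.82 in WT cells, a difference of -0.18 (95% interval -2.15 to 1.79).

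The means of these 3 genes at 4 h differed by less than the spread between arrays. In the fit, 1 estimate of the spread per gene was shared by all 4 groups, including the uneven groups at 0 h. The second Btc probe set differed by 0.10 (95% interval -2.13 to 2.33) at 4 h, and the second Errfi1 probe set by -0.11 (95% interval -1.22 to 1.01).

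At 0 h Ereg averaged 8.005 ± 5.82 in Ex6DEL cells and 6.23 ± 3.91 in WT cells, a difference of 1.77 (95% interval -4.60 to 8.15). Btc averaged 5.41 ± 4.84 in Ex6DEL cells and 3.07 ± 0.67 in WT cells, a difference of 2.34 (95% interval -2.14 to 6.81). Errfi1 averaged 10.06 ± 1.90 in Ex6DEL cells and 9.05 ± 0.25 in WT cells, a difference of 1.01 (95% interval -0.96 to 2.98). Without Ex6DEL 0 h replicate 3 these differences were -1.56 for Ereg, -0.45 for Btc and -0.065 for Errfi1. Without that array and WT 0 h replicate 1 they were 0.70 for Ereg, -0.07 for Btc and 0.07 for Errfi1.

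The response in Ex6DEL cells minus that in WT cells was -2.42 (95% interval -8.75 to 3.91) for Btc, -1.84 (95% interval -10.86 to 7.17) for Ereg and -1.19 (95% interval -3.98 to 1.59) for Errfi1. Of the 9 members, 0 passed this test of limma and 0 had an unadjusted p under 0.05, where 0.011% of all genes passed. Without Ex6DEL 0 h replicate 3 the differences of responses were 0.38 for Btc, 1.49 for Ereg and -0.12 for Errfi1, and without that array and WT 0 h replicate 1 they were -0.01 for Btc, -0.77 for Ereg and -0.26 for Errfi1.

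Egfr 1424932_at was the member probe set whose genotypes lay apart at 4 h. Its mean there was 3.14 ± 0.17 in Ex6DEL cells and 4.62 ± 0.25 in WT cells (SD, n = 3 each), with every Ex6DEL array below every WT array, as for 1.44% of all probe sets. The difference of -1.48 (95% interval -3.01 to 0.05) had an unadjusted p of 0.0563 and an adjusted p of 1 by limma. The difference of responses was -2.46 (SE 0.95, unadjusted p = 0.0301, adjusted p = 0.871 by limma over all probe sets) and -1.57 without Ex6DEL 0 h replicate 1. For Egfr 1435888_at the difference at 4 h was -0.0039 (95% interval -1.63 to 1.62).

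**Figure D3:**
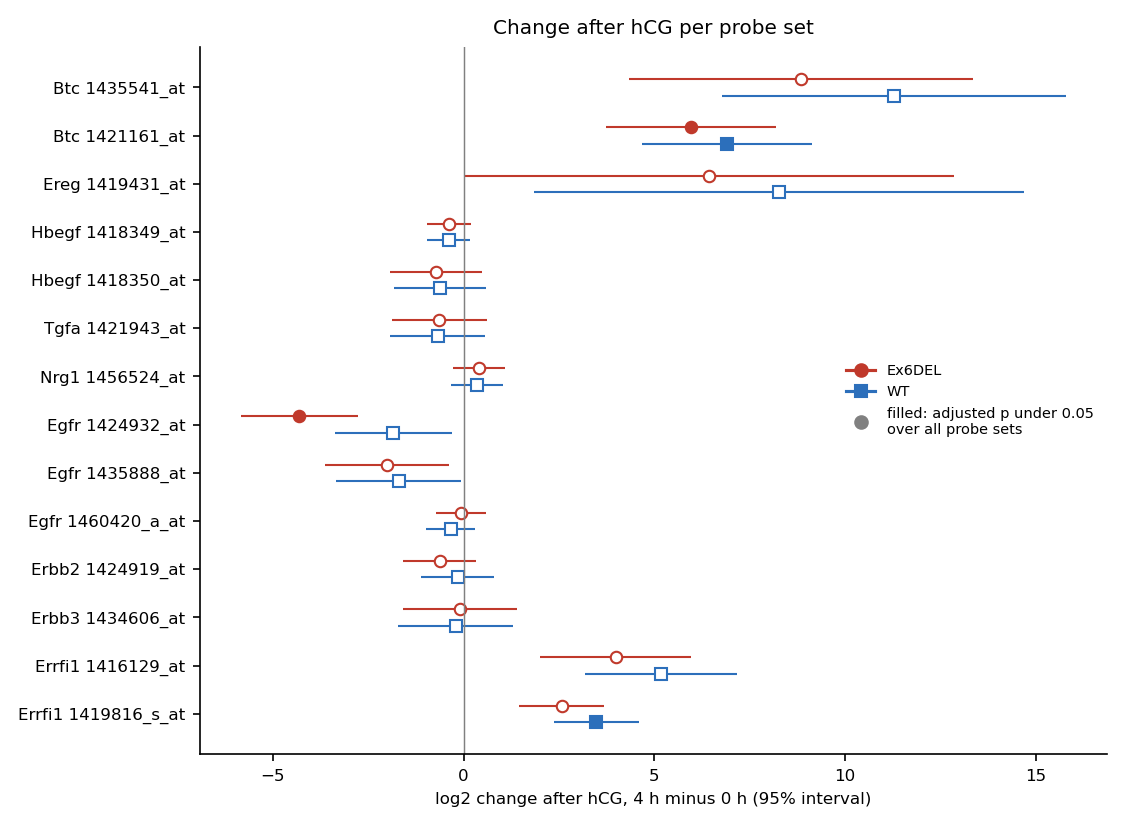
Log2 change after hCG (4 h minus 0 h) of 14 member probe sets in Ex6DEL cells (red circles) and WT cells (blue squares), with 95% intervals from limma over all probe sets; filled symbols passed an adjusted p of 0.05. Both Btc and both Errfi1 probe sets and that of Ereg, which did not pass, lie to the right of 0, and 2 Egfr probe sets to the left. The intervals of the 2 genotypes overlap for Btc, Ereg and Errfi1.

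Among the other ligands and receptors of the family, Epgn encodes epigen, an EGFR ligand. The Ex6DEL arrays gave 11.38, 10.66 and 11.05 at 4 h, against 2.65, 2.52 and 8.54 at 0 h. The WT arrays gave 11.82, 10.16 and 10.05 at 4 h, against 5.48, 3.73 and 3.001 at 0 h. The arrays did not overlap in either genotype, and the change was 6.45 (SE 1.50, adjusted p = 0.0646 by limma) in Ex6DEL cells and 6.61 (SE 1.50, adjusted p = 0.0852 by limma) in WT cells. The change in Ex6DEL cells was 8.44 without Ex6DEL 0 h replicate 3. Of the 6 genes listed, 0 passed in either genotype. At an unadjusted p under 0.05 there were 1 in Ex6DEL cells and 2 in WT cells, beside 18.9% and 14.4% of all genes. Besides Epgn, the other in WT cells was among the genes at or near the floor. Egf, Nrg2, Nrg3, Nrg4 and Erbb4 lay between 2.21 and 2.89, at or near the floor.

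Ereg, Btc and Epgn are neighbours on mouse chromosome 5. In the RefSeq annotation of GRCm38.p6 the protein-coding genes run in the order Cxcl2, Mthfd2l, Epgn, Ereg, Areg, Btc, Parm1 and Rchy1. These neighbours were chosen after the values were seen, which limits what their comparison shows. The changes in Ex6DEL cells were 2.04 for Cxcl2, 0.33 for Mthfd2l, 1.84 for Parm1 and -0.15 for Rchy1. In WT cells they were 2.29 for Cxcl2, 0.88 for Mthfd2l, 1.83 for Parm1 and 0.40 for Rchy1. Parm1 passed in Ex6DEL cells (SE 0.34, adjusted p = 0.0384 by limma) and had an adjusted p of 0.0522 by limma in WT cells, while Btc passed in WT cells and Epgn and Ereg in neither. The changes of the ligand genes were larger in size than those of the 4 measured genes that flank them, with SEs of 1.50 to 2.80 for the ligand genes and 0.34 to 0.87 for the flanking genes. At 0 h Cxcl2 averaged 2.23 in Ex6DEL cells and 2.26 in WT cells, near the floor, which limits what the size of its change shows.

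**Figure D4:**
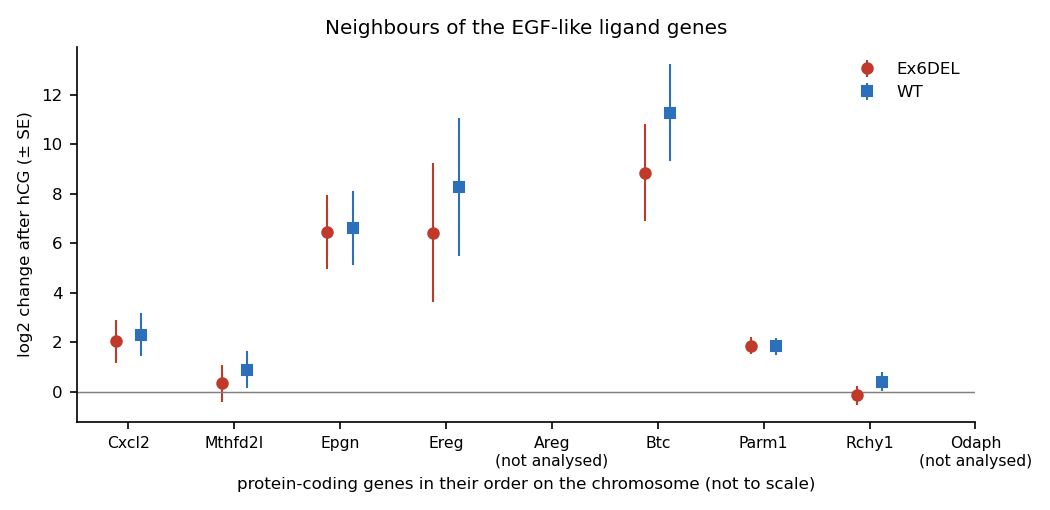
Log2 change after hCG (mean ± SE of the fit) of the genes around the EGF-like ligand genes, in chromosome order, for Ex6DEL cells (red circles) and WT cells (blue squares). Epgn, Ereg and Btc changed by 6.42 to 11.27, and the flanking genes by -0.15 to 2.29; Areg and Odaph were not analysed.

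Of the 9 genes of ligand shedding, 1 passed in each genotype, Rhbdf1, where 0.566% of all genes passed upward in Ex6DEL cells and 0.61% in WT cells. Rhbdf1 encodes iRhom1, an inactive rhomboid protein that carries the protease ADAM17 to the cell surface. Ex6DEL values of it were 10.51, 10.53 and 10.58 at 4 h, against 9.46, 9.28 and 9.71 at 0 h, and rose by 1.06 (SE 0.21, adjusted p = 0.0456 by limma), a call that held in 3 of the 12 fits with 1 array left out and had an adjusted p of 0.0795 by limma with the replicate number as a block. WT values of it were 10.82, 10.95 and 10.21 at 4 h, against 8.33, 8.89 and 8.67 at 0 h, and rose by 2.03 (SE 0.21, adjusted p = 0.00733 by limma). The other named genes of the list did not pass. Its relative Rhbdf2 had a change of 2.71 in Ex6DEL cells and 2.08 in WT cells. Adam17, the protease that releases Ereg and other ligands, had -0.86 in Ex6DEL cells and -0.08 in WT cells, and Mmp2, a matrix metalloproteinase, -1.29 in Ex6DEL cells and 0.90 in WT cells. Ex6DEL 0 h replicate 1, the array with the highest theca and stroma markers, was the highest at 0 h for 5 of 8 genes of this list that varied there, and the part of those cells was not tested. Without that array the changes in Ex6DEL cells were 1.202 for Rhbdf2, -0.41 for Adam17 and -0.55 for Mmp2. The medians of the list were 0.14 in Ex6DEL cells and 0.05 in WT cells.

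Among the 13 measured genes of the adaptors and the RAS-ERK chain downstream of the receptors, 0 passed in either genotype. An unadjusted p under 0.05 was seen for 4 in Ex6DEL cells and 2 in WT cells, beside 18.9% and 14.4% of all genes. The adaptor Grb2 had a change of 1.41 in Ex6DEL cells (adjusted p = 0.0883 by limma) and of 1.32 in WT cells (adjusted p = 0.152 by limma). The docking protein gene Gab1 had -1.31 (adjusted p = 0.0646 by limma) in Ex6DEL cells and -0.87 (adjusted p = 0.246 by limma) in WT cells. Map2k2, a kinase that activates ERK, had -0.84 in Ex6DEL cells and 0.03 in WT cells, and Plcg1, a phospholipase recruited to activated receptors, -0.77 in Ex6DEL cells and -0.25 in WT cells. The change of Map2k2 in Ex6DEL cells was -0.52 without Ex6DEL 0 h replicate 1. The median of the list was 0.01 in Ex6DEL cells and 0.10 in WT cells.

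Of the 13 negative regulators of ERBB receptors, 0 passed in either genotype. Those at an unadjusted p under 0.05 were 4 in Ex6DEL cells and 6 in WT cells, beside 18.9% and 14.4% of all genes. Spry2, a feedback inhibitor of receptor tyrosine kinases, read 10.05, 9.87 and 10.61 in Ex6DEL cells at 4 h, against 6.65, 6.14 and 9.44 at 0 h. Readings in WT cells were 10.64, 10.34 and 9.42 at 4 h, against 6.81, 6.44 and 7.18 at 0 h. Ex6DEL 0 h replicate 3 was again the highest array at 0 h. The change of Spry2 was 2.77 (adjusted p = 0.102 by limma) in Ex6DEL cells and 3.32 (adjusted p = 0.0889 by limma) in WT cells, and without Ex6DEL 0 h replicate 3 it was 3.78 in Ex6DEL cells. The ubiquitin ligase gene Cblb had 1.26 in Ex6DEL cells and 1.50 in WT cells, Socs5, which promotes receptor degradation, 1.24 in Ex6DEL cells and 1.53 in WT cells, and Lrig3 0.42 in Ex6DEL cells and 0.70 in WT cells. The median of the list was 0.10 in Ex6DEL cells and 0.44 in WT cells.

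The 7 follicle transcripts known to be raised by EGF receptor signalling had median changes of 3.49 in Ex6DEL cells and 4.57 in WT cells, beside medians over all genes of -0.01 in Ex6DEL cells and 0 in WT cells. Changes were above 0 for 6 of the 7 in Ex6DEL cells and 7 of the 7 in WT cells. On Ex6DEL 0 h replicate 3, Cebpb, Egr1 and Fos read above every Ex6DEL array at 4 h. In Ex6DEL cells 1 of the 7 passed, and in WT cells 0 of the 7, where 0.566% and 0.61% of all genes passed upward. An unadjusted p under 0.05 was seen for 4 in Ex6DEL cells and 5 in WT cells, beside 18.9% and 14.4% of all genes. Ptx3, a pentraxin of the cumulus matrix, read 13.36, 12.61 and 13.23 in Ex6DEL cells at 4 h, against 5.66, 3.45 and 9.92 at 0 h, and rose by 6.73 (SE 1.34, adjusted p = 0.0457 by limma), a call that held in 1 of the 12 such fits and had an adjusted p of 0.0689 by limma with the block. In WT cells it read 13.68, 12.67 and 12.35 at 4 h, against 6.13, 5.66 and 5.42 at 0 h, a change of 7.16 (SE 1.34, adjusted p = 0.0522 by limma).

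Ptgs2, the inducible prostaglandin synthase, had a change of 7.35 in Ex6DEL cells and 8.96 in WT cells. Tnfaip6, a hyaluronan-binding protein gene, had 6.78 in Ex6DEL cells and 8.60 in WT cells, and Has2, a hyaluronan synthase gene, 3.49 in Ex6DEL cells and 4.57 in WT cells, with adjusted p-values of 0.0564 to 0.113 by limma for these 3 genes over both genotypes. Without Ex6DEL 0 h replicate 3 the changes in Ex6DEL cells were 8.51 for Ptx3, 9.77 for Ptgs2, 9.51 for Tnfaip6 and 4.24 for Has2.

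Upstream of the ligands, 6 of 7 listed genes of the LH receptor pathway were measured. Of these, 0 passed in Ex6DEL cells and 1 in WT cells, where 0.566% and 0.61% of all genes passed upward. Those at an unadjusted p under 0.05 were 2 in Ex6DEL cells and 1 in WT cells, beside 18.9% and 14.4% of all genes. Pgr, the progesterone receptor gene, read 14.40, 12.66 and 13.58 in Ex6DEL cells at 4 h, against 4.71, 2.79 and 10.44 at 0 h, a change of 7.57 (SE 1.66, adjusted p = 0.0557 by limma). The WT arrays gave 14.08, 13.41 and 12.43 at 4 h, against 3.82, 2.30 and 2.89 at 0 h, and rose by 10.31 (SE 1.66, adjusted p = 0.0358 by limma). That call held in 3 of the 12 such fits and was ended by the replicate block. Prkar2b, a regulatory subunit of protein kinase A, had a change of -2.26 in Ex6DEL cells (adjusted p = 0.0721 by limma) and -0.53 in WT cells. Gnas, the G protein subunit that couples the LH receptor to cyclic AMP, had -0.70 in Ex6DEL cells and 0.68 in WT cells, and Prkaca, a catalytic subunit of protein kinase A, -0.57 in Ex6DEL cells and -0.29 in WT cells. The change of Pgr in Ex6DEL cells was 9.80 without Ex6DEL 0 h replicate 3. Ex6DEL 0 h replicate 1 was the highest array at 0 h for 4 of the 6 genes, and without it the change of Gnas in Ex6DEL cells was -0.20. The median of the list was -0.45 in Ex6DEL cells and 0.19 in WT cells.

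**Figure D5:**
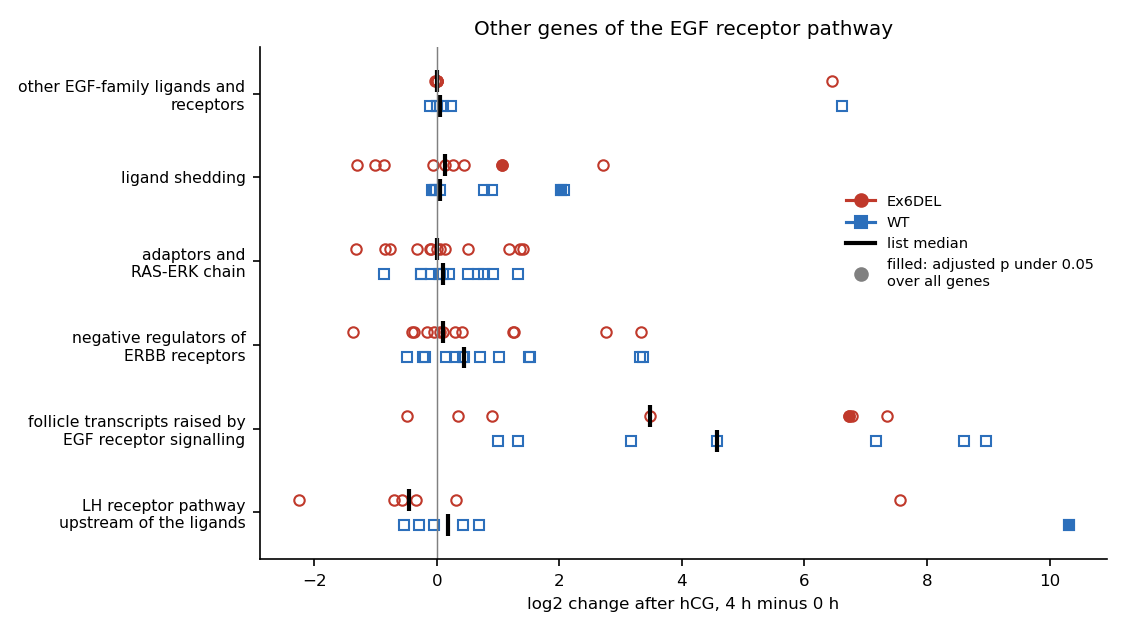
Log2 change after hCG of the measured genes of 6 pathway lists in Ex6DEL cells (red circles) and WT cells (blue squares), with the list median (black bar); filled symbols passed an adjusted p of 0.05 over all genes. Rhbdf1 passed in both genotypes, Ptx3 in Ex6DEL cells and Pgr in WT cells, and the follicle transcripts raised by EGF receptor signalling had medians of 3.49 in Ex6DEL cells and 4.57 in WT cells.

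Over the 12 arrays, which share the step from 0 h to 4 h, the profile of Btc was closest to that of Errfi1 among the members (Pearson r 0.990), and Ereg followed both less closely (0.934 with Btc and 0.907 with Errfi1). Of all genes, those most like Btc were Nts (0.997), the gene of neurotensin, Sult1e1 (0.995), an estrogen sulfotransferase gene, and Pgr (0.993). Those most like Ereg were F3 (0.990), the gene of tissue factor, Crem (0.987), a cyclic AMP response element modulator gene, and Zfp703 (0.987), a zinc finger protein gene. The values of Ereg and Btc diverged on the arrays at 0 h that stood apart: on Ex6DEL 0 h replicate 3 Ereg lay within its range at 4 h in Ex6DEL cells and Btc below its range, and on WT 0 h replicate 1 Ereg read 10.75 and Btc 3.84.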

How the data were processed

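RNA of pooled granulosa cells was measured on 12 arrays. Per the submitters' processing notes the deposited log2 values were made with GCRMA (version not given), which corrects background, normalizes between arrays and summarises probes. The build is not given in the sources used here, and the arrays' number limits the precision.

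Groups came from the sample titles. Of the probe sets, 34958 had exactly 1 gene symbol in GEO's platform annotation; 932 with several and 9211 without one represent no gene. Where a gene had several, the one with the highest mean level stood for it. The main model was that of limma 3.58.1 (lmFit, then eBayes without trend or robust options; R 4.3.3) on all arrays in 4 groups without covariates, leaving 8 residual degrees of freedom and 0.626 prior degrees of freedom, for 18194 genes and, separately, for 45101 probe sets, with Benjamini-Hochberg adjustment and a threshold of 0.05. Deviations of arrays with one number at 4 h and 0 h correlated at 0.14, 0.35 and 0.22 in Ex6DEL cells and at 0.065, 0.20 and -0.012 in WT cells. Between the genotypes those of one number correlated at 0.66, 0.32 and 0.014 at 4 h and at 0.13, 0.45 and -0.059 at 0 h. The main tests took no pairs in either genotype, and the replicate number entered only as a block among the alternatives. The scripts were tested on simulated data. The members, gene lists and tests were chosen with earlier results of these data known. Every member was described; from each pathway list up to 4 genes with the smallest p in either genotype were named. Alternatives were quantile normalization, a shift to one median, a filter on dim genes, a raised floor, every probe set by itself, trend and robust variance, array weights, the compared groups alone, the replicate number as a block, and left-out arrays.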

Additional observations from a re-analysis of the deposited data

How the results depend on the processing

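The count of members past the threshold depended on the settings, as did the share of all features that passed, given here in brackets. In Ex6DEL cells it was 0 (2.17%), and 1 after quantile normalization (2.67%), 2 after a shift to one median (4.33%) or among the brighter genes (14.7%), and 3 without Ex6DEL 0 h replicate 3 and WT 0 h replicate 1 (7.11%). With 1 array left out it ranged from 0 to 3. In WT cells it was 2 (0.929%), and 3 with array weights (12.6%) or without the same arrays (1.76%), where Ereg was added. It was 1 with a raised floor (0.665%) or the compared groups alone (0.0934%), and 0 with the replicate block (0.467%). With every probe set tested by itself (0.448%) it was 0 for the probe sets that stood for the genes. In that fit other member probe sets passed: Btc 1421161_at and Errfi1 1419816_s_at in WT cells, and Btc 1421161_at and Egfr 1424932_at in Ex6DEL cells. With 1 array left out the count in WT cells ranged from 0 to 2. The fits without Ex6DEL 0 h replicate 3 or WT 0 h replicate 1 leave out the highest reading at 0 h of Ereg, Btc and Errfi1 in that genotype. Their counts are descriptions and no test of these genes. The counts between genotypes and of responses stayed at 0 under all settings run. The cause was not tested for any change.

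Signs of log2 changes that had not passed the test turned under some settings. After quantile normalization, the Ex6DEL response was 0.11 for Egfr, and the WT response was -0.078 for Map2k2, and Ex6DEL minus WT at 4 h was 0.24 for Ereg, 0.20 for Btc, 0.049 for Egfr and 0.085 for Errfi1. After a shift to one median, the difference of responses was -0.052 for Hbegf, -0.016 for Tgfa and -0.011 for Nrg1. With array weights, the Ex6DEL response was 0.43 for Erbb3, and Ex6DEL minus WT at 0 h was 0.11 for Hbegf and -0.34 for Egfr 1435888_at, and Ex6DEL minus WT at 4 h was 0.0079 for Btc, and the difference of responses was -0.16 for Hbegf, -0.070 for Tgfa, -0.0072 for Egfr and 0.36 for Egfr 1435888_at. Without both of these arrays, the Ex6DEL response was 0.049 for Egfr, and the WT response was 0.020 for Egfr, and Ex6DEL minus WT at 0 h was -0.071 for Btc, 0.0086 for Hbegf 1418350_at and -0.15 for Egfr 1435888_at, and the difference of responses was 0.15 for Egfr 1435888_at. With 1 array left out in turn, values spanned 0. The Ex6DEL response ran from -0.68 to 0.70 for Erbb3 and from -0.20 to 0.051 for Egfr. The WT response ran from -0.58 to 0.020 for Egfr, from -0.50 to 0.013 for Erbb3, from -0.29 to 0.10 for Adam17 and from -0.23 to 0.23 for Map2k2. Ex6DEL minus WT at 0 h ran from -0.52 to 0.080 for Egfr, from -0.25 to 0.25 for Hbegf, from -0.94 to 0.041 for Tgfa, from -0.13 to 0.64 for Erbb2, from -1.06 to 0.32 for Erbb3, from -1.56 to 4.03 for Ereg, from -0.45 to 3.74 for Btc, from -0.065 to 1.74 for Errfi1, from -0.41 to 1.06 for Egfr 1435888_at and from -0.26 to 1.80 for Btc 1421161_at. At 4 h this difference ran from -0.74 to 0.30 for Ereg, from -0.46 to 0.30 for Btc, from -0.58 to 0.27 for Errfi1, from -0.14 to 0.11 for Egfr, from -0.33 to 0.27 for Nrg1, from -0.36 to 0.14 for Erbb3, from -0.083 to 0.012 for Hbegf, from -0.33 to 0.20 for Erbb2, from -0.47 to 0.25 for Errfi1 1419816_s_at and from -0.12 to 0.33 for Btc 1421161_at. The difference of responses ran from -0.48 to 0.91 for Erbb3, from -0.49 to 0.49 for Tgfa, from -0.35 to 0.25 for Nrg1, from -0.088 to 0.51 for Egfr, from -0.30 to 0.20 for Hbegf, from -0.73 to 0.039 for Erbb2, from -4.10 to 1.49 for Ereg, from -3.82 to 0.38 for Btc, from -0.46 to 0.38 for Hbegf 1418350_at, from -1.06 to 0.41 for Egfr 1435888_at and from -1.70 to 0.36 for Btc 1421161_at.

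Over all 4 groups the main model did not take the replicate numbers as pairs. Deviations from the group means correlated at -0.31 to 0.66 (median 0.148) over the 18 pairs of arrays with one number and at -0.57 to 0.40 (median -0.053) over the 36 other pairs, and 8 of 12 arrays correlated best with their own number. Correlations over 0.1 were seen in 11 of the 18 pairs and in 4 of the 36 others. Whether the numbers mark a batch was not tested. With the replicate block, adjusted p-values by limma were 0.0783 for both Btc and Errfi1 in WT cells, and over all genes 33 passed upward and 59 downward in Ex6DEL cells (103 and 291 without it) and 55 and 30 in WT cells (111 and 58 without it). The block also ended the calls of Btc 1421161_at in both genotypes, of Errfi1 1419816_s_at and Pgr in WT cells and of Egfr 1424932_at, Rhbdf1 and Ptx3 in Ex6DEL cells, and no other call of a member or named gene. Of the 8 settings without left-out single arrays run for probe sets, the call of Btc 1421161_at held in 3 in Ex6DEL cells and 6 in WT cells, that of Egfr 1424932_at in Ex6DEL cells in 4 and that of Errfi1 1419816_s_at in WT cells in 6. Of the 10 run for genes, the calls of Btc and Errfi1 in WT cells held in 7 each, that of Rhbdf1 in 5 in Ex6DEL cells and 9 in WT cells, that of Ptx3 in Ex6DEL cells in 6 and that of Pgr in WT cells in 9. The call of Egfr 1424932_at was lost with a raised floor (adjusted p = 0.0523 by limma), array weights (0.0559) and the compared groups alone (0.34), and that of Rhbdf1 in WT cells with the compared groups alone (0.102).

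The pathway genes were put through the alternatives after their values were seen. With 1 array left out, the call of Rhbdf1 held in 3 of 12 fits in Ex6DEL cells and 12 of 12 in WT cells, that of Ptx3 in Ex6DEL cells in 1 of 12 and that of Pgr in WT cells in 3 of 12. A group left with 2 arrays takes its spread from all groups. Some settings give fewer values: the compared groups alone hold no difference of responses, and the filter on dim genes removes dim members. Signal over background limits Nrg1, 4 Egfr probe sets, 2 of Tgfa and 1 of Erbb3, which lay at or near the floor. Readings close to the floor at 0 h also limit what the size of the changes of Btc and Cxcl2 shows.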
